A study of Rattus norvegicus with 49 samples.

Results

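The 7 genes that mark resident microglia here were followed in the CA1 region of the rat hippocampus at 5 ages. They are P2ry12, Csf1r, Cx3cr1, Aif1, Coro1a, Laptm5 and Irf8. They were taken by gene symbol in the platform annotation, which gave 7 of 7 genes, read by 9 probe sets, among 10412 named genes and 15923 probe sets of the array. P2ry12 and Aif1 had 2 probe sets each, and the brighter one stood for the gene. Every gene passed the filter on low signals, which asked for a signal of 100 on at least 5 arrays and left 8094 genes to be tested. The tissue came from Fisher 344 rats of 3, 6, 9 and 12 months (9 animals each) and of 23 months (13 animals), 49 in all, with 1 Affymetrix RAE 230A array per animal. All had been trained in a water maze in the days before CA1 of the left hippocampus was frozen, so no age was untrained, and no agent or transgene was used. The sample labels give 23 months for the oldest group and the series' design text gives 25 months in one place; 23 months was used. That group lacks the animals that the investigators had withdrawn in poor health. The animals are separate, so the spread given is that between animals.

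Microglia are the macrophages that settle in the brain before birth and renew themselves there. They survive through the receptor kinase encoded by Csf1r, read fractalkine from neurons through Cx3cr1, and steer their processes toward released ADP through P2ry12. Aif1 encodes the calcium-binding protein Iba1 that is stained to show microglia in tissue sections, Coro1a an actin-binding coronin, Laptm5 a membrane protein of lysosomes in blood-derived cells, and Irf8 a transcription factor that works with PU.1 in the myeloid lineage. In whole CA1 tissue, more microglia and more RNA per microglial cell cannot be told apart.

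The label was checked first. The genes read by the brighter probe sets had signals of at least 100 on all 49 arrays, except Irf8, which reached that level on 27 arrays and had a mean of 92.0 ± 9.00 at 3 months (SD, n = 9). Other genes of homeostatic microglia were read as well. Of 29 listed, 19 were on the array and 16 passed the filter, among them Tmem119, at 248 ± 29.5 (SD, n = 9) at 3 months. Itgam passed with a mean of 98.9 at that age. Olfml3, Ptprc and Entpd1 did not pass, with means of 73.0, 45.6 and 16.9 at 3 months. Coro1a, Laptm5 and Irf8 are also made by lymphocytes, so the 7 genes are not equally specific to microglia. Coro1a was the brightest of the 7 at 3 months, with a mean of 844. Which cells of CA1 gave the signal of each gene was not tested. On 5 arrays, apart from the rest, the signal was high for transthyretin (Ttr), a main transcript of choroid plexus: 3908 to 16310, against at most 1123 elsewhere. They were 4 of the 9 arrays of 3 months (replicates 4, 6, 7 and 8) and replicate 11 of 23 months. Replicates 5 and 8 of 23 months had signals of 658.6 and 4388 for Hbb, a haemoglobin gene, and no other array exceeded 210.3. Array medians ranged from 209 to 225.

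Age changed the 7 genes unequally. Laptm5, Aif1, P2ry12 and Csf1r were higher at 23 than at 3 months by 1.31 to 1.53-fold, whereas Coro1a was no higher in the old animals, and Cx3cr1 and Irf8 were higher without passing the test. Over all 5 ages, 4 of the 7 genes passed limma's moderated F-test at an adjusted p under 0.05 (Benjamini-Hochberg over all genes), where 1.88% of all tested genes did. Between 23 and 3 months the same 4 passed, all higher, where 3.26% of all genes passed in either direction and 2.41% were higher. The median log2 difference was 0.39 over the 7 genes and 0.00085 over all 8094.

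**Figure D1:**
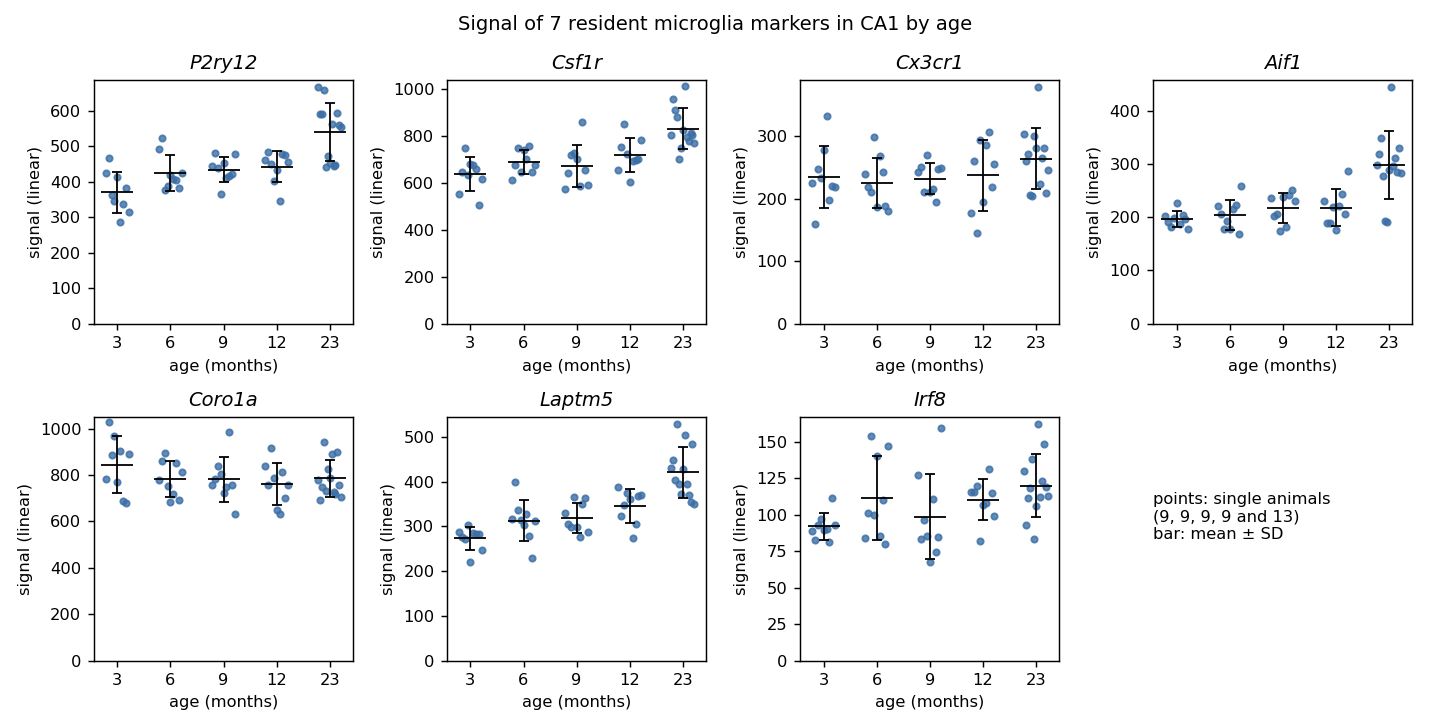
Signal on a linear scale (vertical axis, from 0) against age in months for the 7 genes, with a point per animal and bars for mean ± SD (n = 9, 9, 9, 9 and 13). The Laptm5 values of 23 months all lie above those of 3 months, while the Coro1a values of all ages overlap.

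Among the receptors, P2ry12, the ADP receptor that distinguishes microglia from most other macrophages, was higher in every old animal than the mean of the young. Its signal had a lowest, median and highest value of 286.7, 361.9 and 468.1 at 3 months, 376.8, 407.9 and 524.2 at 6 months and 366.8, 439.0 and 480.5 at 9 months. At 12 months these were 346.6, 456.7 and 485.7, and at 23 months 440.9, 561.4 and 668.7. The youngest and oldest groups overlapped, with 9 of 13 old animals above the highest young one. The mean went from 371 ± 57.6 (SD, n = 9) to 542 ± 81.5 (SD, n = 13), a log2 difference of 0.55 ± 0.078 (SE; adjusted p = 1.51e-06, limma). A second probe set of P2ry12 was read on every array as well. Its mean went from 257 ± 43.4 to 351 ± 48.6 (SD, n = 9 and 13), a log2 difference of 0.46 ± 0.11 (SE; adjusted p = 0.0058 with every named probe set tested in limma). Both probe sets of P2ry12 passed.

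Csf1r, the receptor for the survival factors Csf1 and Il34, had the smallest fold change of the 4 genes that rose. Its lowest, median and highest signals were 506.4, 646.4 and 748.5 at 3 months, 609.3, 673.1 and 756.1 at 6 months, 574.3, 653.0 and 856.5 at 9 months and 601.9, 699.8 and 849.5 at 12 months. At 23 months they were 701.1, 804.2 and 1011, and 11 of 13 old animals lay above the highest young one. The log2 difference between 23 and 3 months was 0.39 ± 0.066 (SE; adjusted p = 4.62e-05, limma), or 1.31-fold.

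Cx3cr1, the fractalkine receptor, did not pass any comparison. Its lowest, median and highest signals were 159.2, 225.7 and 331.8 at 3 months, 180.6, 218.7 and 299.1 at 6 months and 194.5, 243.0 and 269.8 at 9 months. They were 144.4, 256.1 and 306.3 at 12 months and 203.6, 264.9 and 378.5 at 23 months. The ages overlapped almost completely, and 1 of 13 old animals exceeded the highest young one. The log2 difference between 23 and 3 months was 0.17 (95% interval −0.056 to 0.40; adjusted p = 0.527, limma). The interval holds both 0 and the 0.39 measured for Csf1r.

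Of the 2 genes for cytoskeletal proteins, Aif1 rose. Its signal, from a probe set whose suffix marks sequences shared between transcripts, had a lowest, median and highest value of 177.8, 196.6 and 227.1 at 3 months, 168.2, 207.2 and 259.5 at 6 months and 173.4, 230.4 and 250.9 at 9 months. These were 176.0, 219.0 and 287.8 at 12 months and 191.4, 296.5 and 444.7 at 23 months. On this probe set the old group was split: 2 animals, replicates 7 and 6, had 191.4 and 192.2, within the young range. The other 11 of 13 lay above the highest young animal. The spread of this signal relative to its mean was 7.49% at 3 months and 21.5% at 23 months (coefficient of variation). The log2 difference was 0.57 ± 0.098 (SE; adjusted p = 5.40e-05, limma), or 1.49-fold. The second Aif1 probe set was dim, at 52.4 ± 27.3 and 79.3 ± 26.7 (SD, n = 9 and 13), and reached a signal of 100 on 5 arrays. It did not show the split: replicates 7 and 6 of 23 months had 68.1 and 97.8, in a group with a median of 71.8. Its coefficient of variation was 52.0% at 3 and 33.7% at 23 months. Its log2 difference of 0.74 ± 0.30 (SE) did not pass (adjusted p = 0.199 with every named probe set tested in limma).

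Coro1a, the coronin that binds and remodels actin filaments in leukocytes, had its highest mean at 3 months. Its lowest, median and highest signals were 677.3, 884.5 and 1031 at 3 months, 683.0, 780.2 and 894.0 at 6 months and 630.8, 756.7 and 987.1 at 9 months. At 12 months they were 630.5, 758.0 and 918.5, and at 23 months 690.8, 757.1 and 941.6. No old animal exceeded the highest young one and 3 of 13 exceeded the young mean. The log2 difference between 23 and 3 months was −0.098 (95% interval −0.24 to 0.046; adjusted p = 0.576, limma). The upper end of that interval lies below the lower end of the interval of each of the 4 genes that rose, of which the lowest is 0.25 for Csf1r.

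Laptm5, the lysosomal membrane protein that sorts immune receptors for degradation, had the smallest p of the 7 genes. Its lowest, median and highest signals were 220.1, 282.5 and 303.8 at 3 months, 228.4, 314.4 and 399.4 at 6 months and 276.7, 304.7 and 365.4 at 9 months. At 12 months they were 272.9, 361.8 and 388.6, and at 23 months 350.8, 404.5 and 529.1. It was the 1 gene of the 7 whose oldest and youngest groups did not overlap, which held for 0.395% of all tested genes. The mean went from 273 ± 24.8 (SD, n = 9) to 420.5 ± 57.2 (SD, n = 13), a log2 difference of 0.62 ± 0.077 (SE; adjusted p = 4.76e-08, limma).

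Irf8, the transcription factor, was the dimmest of the 7. Its lowest, median and highest signals were 81.1, 90.5 and 111.7 at 3 months, 79.8, 101.1 and 154.2 at 6 months and 67.5, 85.6 and 159.3 at 9 months. They were 81.7, 114.6 and 131.6 at 12 months and 83.3, 118.3 and 162.3 at 23 months. In the old group 9 of 13 animals exceeded the highest young one and 12 of 13 the young mean. The log2 difference of 0.37 (95% interval 0.11 to 0.62) had an adjusted p of 0.104 in limma (unadjusted p = 0.0055) and was not called.

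Whether 2 of the genes changed by different amounts was tested on the difference of their log2 signals within each animal. The 9 young and 13 old animals were compared for 21 pairs with an exact two-sided permutation test of the ages over 497420 relabellings. The change of Coro1a was smaller than those of Laptm5 (by 0.72), Aif1 (0.67), P2ry12 (0.65), Csf1r (0.48) and Irf8 (0.46), with p adjusted over the 21 pairs of 6.33e-05, 0.0012, 4.22e-05, 9.85e-05 and 0.0035. These 5 differences passed under all 28 alternatives, including each array left out in turn. The change of Cx3cr1 was smaller than those of Laptm5 and Aif1 by 0.44 and 0.40 (adjusted p = 0.020 and 0.026, exact permutation test). Neither passed once the 5 transthyretin-rich arrays were left out (adjusted p = 0.079 and 0.130, exact permutation test), or without 3 months replicate 6; that of Aif1 ended also without 3 months replicate 3. Csf1r changed less than Laptm5 by 0.23 (adjusted p = 0.032, exact permutation test), a difference that ended without any 1 of 5 arrays: 3 months replicates 3, 5, 6 and 9 and 23 months replicate 14. It ended also without the 2 arrays of high Hbb signal (adjusted p = 0.073, exact permutation test). The other 13 pairs did not pass. P2ry12, Aif1 and Laptm5 differed from each other by at most 0.070 on the log2 scale, in tests of which the smallest p was 0.513 (exact permutation test, unadjusted).

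**Figure D2:**
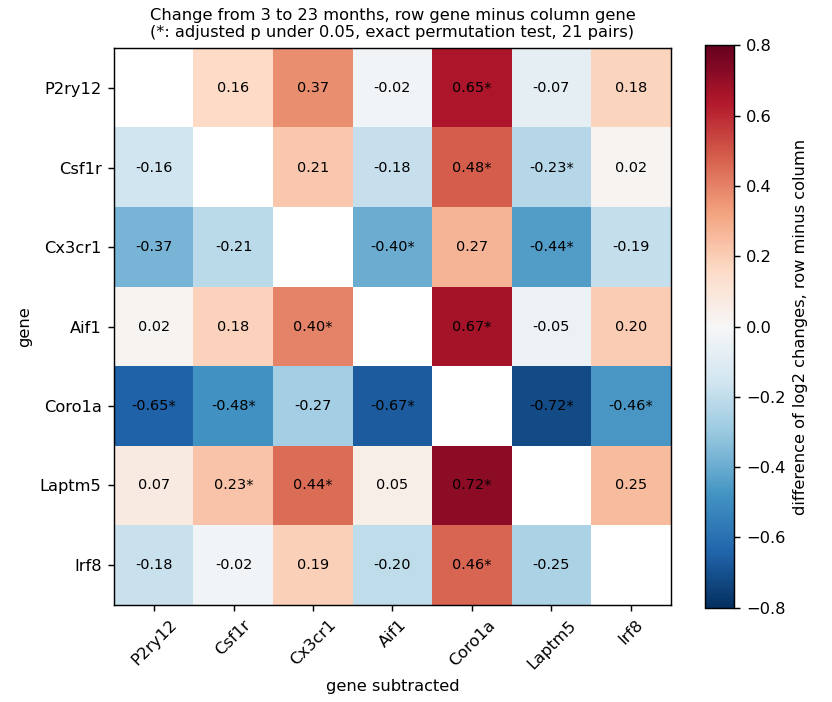
Difference of the changes from 3 to 23 months on the log2 scale, row gene minus column gene, in colour and digits, for the 21 pairs shown in both directions. Stars mark an adjusted p under 0.05, and the row of Coro1a is negative against all 6 others.

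The sequences just before the transcription starts of Laptm5 and Coro1a, the pair with the largest difference of changes, are printed to show the regulatory DNA of a gene that rose and of one that did not. They are the 250 bases upstream of the RefSeq start on the GRCr8 build, read along the gene's strand, with GGAA (the core read by PU.1 and other ETS factors, on either strand) in capitals. Laptm5 lies at chr5:148371630-148371879, plus strand, and Coro1a at chr1:190731104-190731353, minus strand.
Laptm5: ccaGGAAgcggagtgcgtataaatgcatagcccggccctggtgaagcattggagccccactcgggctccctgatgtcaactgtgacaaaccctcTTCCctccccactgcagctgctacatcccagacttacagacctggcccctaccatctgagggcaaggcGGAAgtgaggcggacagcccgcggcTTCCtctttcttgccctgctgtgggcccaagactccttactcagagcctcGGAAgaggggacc
Coro1a: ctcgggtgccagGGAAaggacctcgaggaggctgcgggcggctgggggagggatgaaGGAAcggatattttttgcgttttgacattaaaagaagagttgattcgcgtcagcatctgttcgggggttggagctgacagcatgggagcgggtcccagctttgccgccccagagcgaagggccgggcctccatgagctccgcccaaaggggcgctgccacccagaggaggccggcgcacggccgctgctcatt

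The core occurred 5 times in the Laptm5 stretch and 2 times in that of Coro1a, with 7 for Csf1r, 3 for Cx3cr1 and 1 for Irf8. Of the 33469 stretches of this length 93.2% held it, with a median of 3 and quartiles of 2 and 4, so the counts of Coro1a and Cx3cr1 lie within the quartiles. Of the 7 genes, 5 had a promoter window in the RefSeq table: Laptm5, Coro1a, Csf1r, Cx3cr1 and Irf8. Longer letters were searched on both strands in the 300 bases from 250 before to 50 after the start. GAGGAAGT, a PU.1 site, was found in 0 of the 5 windows and in 2.42% of all windows. A joint ETS and IRF site (GGAA, 2 free bases, GAAA) and an IRF site (GAAA, 2 free bases, GAAA) were found in 0 of the 5 as well, and in 2.94% and 3.92% of all windows.

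At the ages between, few calls were made. No gene of the 7 passed at 6 or 9 against 3 months, where 0.0124% and 0.0371% of all genes did. None passed at 12 against 3 months either, against 0.222% of all genes. There Laptm5 came closest, at 1.27-fold, with 9 of 9 animals of 12 months above the young mean (adjusted p = 0.059, limma). It passed when any 1 of 7 arrays was left out (adjusted p = 0.014 to 0.048, limma): 3 months replicate 4, 6 months replicates 2 and 8, 12 months replicates 6 and 7 and 23 months replicates 5 and 9. P2ry12 and Csf1r were 1.20 and 1.13-fold higher at 12 than at 3 months (unadjusted p = 0.0029 and 0.017 in limma, not called), and Aif1 was 1.10-fold higher (unadjusted p = 0.189 in limma).

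Between 12 and 23 months, 1 of the 7 genes passed, where 0.358% of all genes did. It was Aif1, with a log2 difference of 0.43 ± 0.098 (SE; adjusted p = 0.025, limma) that followed nearly level means of 218 ± 28.0 at 9 and 218 ± 34.0 at 12 months (SD, n = 9 each). Leaving out any 1 of 5 arrays ended the Aif1 call (adjusted p = 0.053 to 0.082, limma): 12 months replicates 2, 3 and 5 and 23 months replicates 3 and 9. So did leaving out the 5 transthyretin-rich arrays, and fitting only the animals of 12 and 23 months (adjusted p = 0.071 and 0.171, limma). P2ry12, Laptm5 and Csf1r were higher at 23 than at 12 months by 0.28, 0.28 and 0.21 on the log2 scale without passing (adjusted p = 0.139, 0.132 and 0.244, limma). Cx3cr1, Irf8 and Coro1a differed by 0.17, 0.11 and 0.047. Between 9 and 6 and between 12 and 9 months 0 of the 7 genes and 0% of all genes passed in limma, with 0 of the 7 at an unadjusted p under 0.05 and 186 and 337 of all genes.

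**Figure D3:**
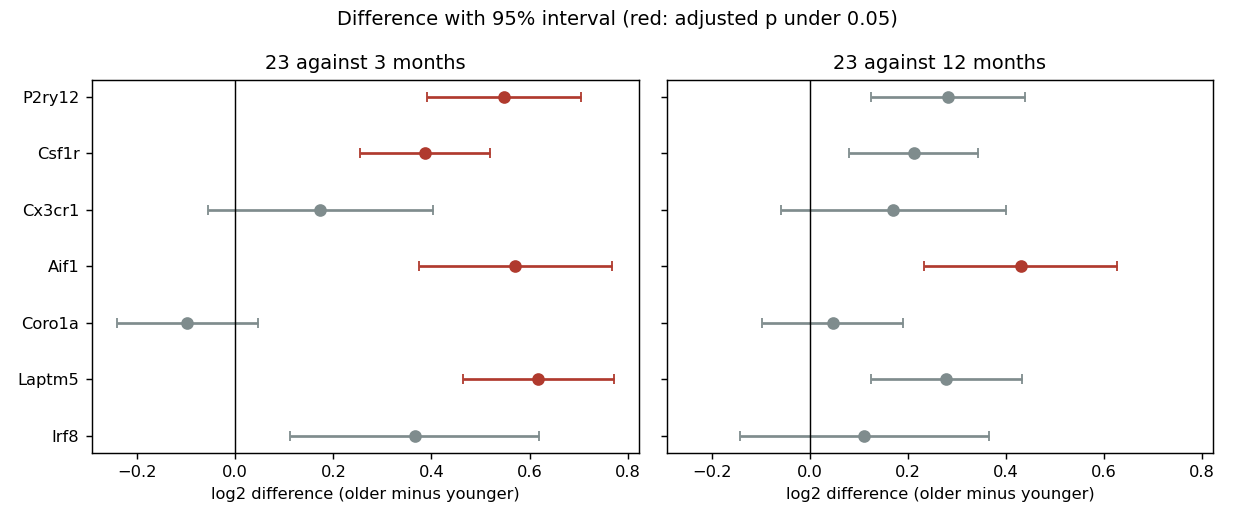
Log2 difference (horizontal axis) with its 95% interval from limma for the 7 genes, at 23 against 3 months (left) and 23 against 12 months (right). Red marks an adjusted p under 0.05, which 4 genes reached on the left and 1, Aif1, on the right.

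A fit with age as a number gave the rate of change. The slope passed for the same 4 genes, with 23 or 25 months as the oldest age, where 5.11% of all genes passed at 23. Over 20 months it came to 0.59 on the log2 scale for Aif1, 0.58 for Laptm5, 0.49 for P2ry12 and 0.37 for Csf1r (adjusted p = 1.48e-06, 4.43e-09, 7.14e-07 and 5.67e-06, limma). For Irf8, Cx3cr1 and Coro1a it came to 0.31, 0.21 and −0.054 without passing (adjusted p = 0.106, 0.268 and 0.735, limma). No departure of the age means from a line passed for any of the 7 genes, or for any tested gene (0%), and 0 of the 7 and 185 of all genes had an unadjusted p under 0.05 in limma's moderated F-test of it.

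Animals of the same age were compared next, on log2 signals from which each age's mean had been subtracted. Of the 21 pairs of genes, 15 had a positive Pearson r over the 49 arrays, with a median of 0.097. Csf1r with Coro1a had the largest r, 0.49 (permutation within ages, p = 9.60e-04, adjusted 0.020 over 21 pairs), but its Spearman rho of 0.43 did not pass (adjusted p = 0.073, permutation). Without the 2 arrays farthest out in Csf1r, r was 0.39. By age it was 0.43, 0.26, 0.80, 0.58 and 0.29 from 3 to 23 months. The call ended without the 5 transthyretin-rich arrays, or without any 1 of 4 arrays (3 months replicate 8, 9 months replicate 7, 12 months replicates 3 and 5), and a second pair passed without 23 months replicate 13. Csf1r rose with age and Coro1a did not.

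The 2 probe sets of P2ry12 did not follow each other within ages, although both rose. Their r was 0.039 and their rho 0.035 over 49 arrays (permutation p = 0.795 and 0.814; adjusted p over 2 genes 0.826 and 0.814), and r was 0.066 without the 2 arrays farthest out. By age r was 0.071, −0.22, 0.43, −0.21 and 0.14 from 3 to 23 months. The old animal of replicate 6 had the lowest signal of its age on one probe set, 440.9, and the highest on the other, 420.9. For Aif1, whose second probe set was dim, r was −0.030 and rho −0.076 (permutation p = 0.826 and 0.603; adjusted 0.826 and 0.814), and r was −0.0060 without the 2 arrays farthest out. The low signal of that Aif1 probe set limits what its r can show. The 2 probe sets of P2ry12 had signals of at least 100 on all 49 arrays. Measurement noise was not estimated for either, and why their r was low was not tested. The other results within ages and on single animals rest on 1 probe set per gene, and may depend on which was read.

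One old animal stood high across the set. Replicate 9 of 23 months exceeded the median of its age in all 7 genes and was the highest of its age in 4, Csf1r at 1011, Cx3cr1 at 378.5, Aif1 at 444.7 and Irf8 at 162.3. The same array had 1288 for the complement gene C3 and 2439 for Cd74, the invariant chain of MHC class II. On the other arrays of 23 months these were at most 715.6 and 863.6. In what share of all tested genes this array was the highest of its age was not worked out. Without it the log2 differences between 23 and 3 months of Aif1, Csf1r, P2ry12 and Laptm5 were 0.52, 0.36, 0.54 and 0.60, all called. Replicates 10 and 15 of 23 months exceeded the median of their age in 0 of the 7 genes. Replicate 8 of 6 months and replicate 5 of 12 months did so in 0 as well. The lowest means of the 7 standardised log2 signals at 23 months were those of replicates 6 (−0.022) and 7 (0.148). Replicate 6 was the lowest of its age in 3 genes and replicate 7 in 2, against 0 for replicate 10 and 1 for replicate 15.

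The genes whose profile was most like the mean standardised profile of the 7 over the 49 arrays were Fcer1g (r = 0.88), C3 (0.87), C1qb (0.87), C1qa (0.85), Anxa3 (0.83), Tmem176a (0.82), Npc2 (0.82) and Cd74 (0.81). With age means subtracted, Fcer1g again came first (0.71), followed by C1qb (0.69), C3 (0.65), C1qc (0.63), C1qa (0.61), RT1-DMa (0.60), Lgals3bp (0.58) and Man2c1 (0.57). These values are a description, since the arrays are shared and the genes were ranked by them. They were not worked out again without replicate 9 of 23 months. Its mean of the 7 standardised signals was 2.09, and the next highest array had 1.20. Among the 7 themselves, the r of one gene with the mean of the other 6 was 0.73 for Aif1, 0.70 for Laptm5, 0.68 for Csf1r and 0.62 for P2ry12, but 0.30 for Irf8, 0.20 for Cx3cr1 and 0.033 for Coro1a. With age means subtracted it was 0.46 for Aif1, 0.34 for Laptm5, 0.33 for Csf1r, 0.32 for Coro1a and 0.23 for P2ry12. It was near 0 for Irf8 (0.015) and Cx3cr1 (−0.016).

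Other genes of the same cells and pathways were read from lists drawn from general knowledge, at 23 against 3 months. Of the 29 genes listed for homeostatic microglia, 19 were on the array and 16 passed the filter, of which 9 rose and 0 fell, with a median log2 difference of 0.33. Cd53, a tetraspanin of leukocytes, rose 1.81-fold, and C1qa and C1qb, chains of the complement starter C1q, rose 1.56-fold each (adjusted p = 1.04e-09, 8.10e-08 and 1.07e-07, limma). Tmem119, the membrane protein used to tell microglia from other macrophages, rose from 248 ± 29.5 to 306 ± 32.8 (SD, n = 9 and 13; adjusted p = 0.0075, limma). At 12 against 3 months Cd53 was the 1 gene of this list to pass (adjusted p = 0.0081, limma).

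Partners of Csf1r and Irf8 were read next. Of 24 listed ligands, adaptors and lineage factors, 17 were on the array and 12 passed the filter, of which 2 rose and 0 fell (median 0.19). They were the adaptor genes Fcer1g, 1.70-fold, and Tyrobp, 1.39-fold (adjusted p = 5.73e-12 and 0.0012, limma), whose proteins carry the signals of many myeloid receptors. Maf was 1.22-fold higher without passing (adjusted p = 0.068, limma). The ligand gene Csf1 had a signal of 105 ± 18.6 at 3 and 132 ± 50.02 at 23 months (SD, n = 9 and 13; adjusted p = 0.663, limma).

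For fractalkine and purine signalling, 16 of 18 genes were on the array and 11 passed the filter, of which 0 rose and 0 fell (median 0.056). Cx3cl1, which encodes fractalkine itself, had a signal of 2242 ± 110.1 at 3 and 2133 ± 195 at 23 months (SD, n = 9 and 13; adjusted p = 0.516, limma). The G protein subunit genes Gnai2 and Gnb1 and the ectonucleotidase gene Nt5e were 1.14, 1.08 and 1.22-fold higher without passing (adjusted p = 0.094, 0.285 and 0.105, limma). Neither the ligand gene nor its receptor gene Cx3cr1 passed.

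Of 25 genes of the actin machinery, which Aif1 and Coro1a act on, 21 were on the array and 20 passed the filter. Of these 6 rose and 0 fell, while the median was −0.0060. Those that rose were Arhgdib (1.32-fold), Rac2 (1.41-fold) and Wipf1 (1.20-fold; adjusted p = 6.97e-04, 0.0044 and 0.014, limma), with Arpc1b, Msn and Capg. Rac2 and Arhgdib encode a GTPase and a GTPase inhibitor of blood cells. Among relatives of the 7 genes, 11 of 15 were on the array and 9 passed the filter, of which Laptm4b rose 1.14-fold (adjusted p = 0.015, limma). Kit was 1.20-fold and Coro2b 1.16-fold lower without passing (adjusted p = 0.082 and 0.149, limma), and Coro1b, Coro1c and Coro7 had log2 differences of 0.029, −0.023 and −0.028.

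Genes of activated phagocytes also rose. Of 22 listed, 18 were on the array and 14 passed the filter, of which 9 rose and 1, Lpl, fell (median 0.38). Fcgr2b rose 2.46-fold, Gpnmb 1.98-fold and Cd74 3.14-fold (adjusted p = 3.19e-13, 1.28e-11 and 1.17e-09, limma). Whether these differ from the changes of the 7 genes was not tested. All these lists were drawn up with earlier results of these arrays known, so their directions are not independent evidence.

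Markers of other cells were read beside these results. Of 5 genes of border macrophages on the array (Lyve1, F13a1, Pf4, Stab1 and Clec10a), 0 passed the filter and 4 never reached a signal of 100, with summed signals of 172 to 252 per array at 3 months and 154 to 331 at 23 months. Of 10 genes of blood monocytes and neutrophils, 2 passed, and Lyz2, which microglia also express, rose 1.29-fold (adjusted p = 1.05e-04, limma). Vcan was 1.06-fold higher without passing (adjusted p = 0.797, limma), and Ccr2, the defining chemokine receptor of blood monocytes, was at 17.2 ± 5.58 and 19.8 ± 13.6 (SD, n = 9 and 13). Among the others below the filter, Plac8 was at 34.6 ± 11.2 and 79.7 ± 101 and S100a9, a calcium-binding protein gene of neutrophils, at 15.1 ± 12.2 and 26.7 ± 13.02 (SD, n = 9 and 13). S100a8 and Np4 also had higher means in the old animals, 9.77 and 14.3, and 23.5 and 32.0. Lower means were those of Ly6c (65.8 and 60.7), Mmp9 (62.7 and 58.6) and RatNP-3b (5.42 and 4.65). The signals of these 10 genes of monocytes and neutrophils summed to 1388 to 1634 at 3 and 1586 to 2226 at 23 months, most of it Lyz2. Of 17 lymphocyte genes 4 passed the filter, of which 0 rose and 0 fell, and Cd4, Cd3e and Cd247 had log2 differences of 0.51, −0.10 and −0.11 (adjusted p = 0.370, 0.800 and 0.896, limma). The lymphocyte signals summed to 668 to 911 at 3 and 648 to 1338 at 23 months, and Cd3d was at 23.1 ± 15.7 and 25.4 ± 18.1 (SD, n = 9 and 13). Genes of cytotoxic lymphocytes, also below the filter, differed unequally between 3 and 23 months. Prf1 was at 26.4 ± 18.4 and 59.8 ± 48.9, Gzmb at 16.3 ± 9.25 and 34.01 ± 44.8 and Nkg7 at 23.8 ± 7.02 and 44.1 ± 47.04 (SD, n = 9 and 13). For Gzmb and Nkg7 the SD at 23 months exceeded the mean. Klrb1b was at 15.7 and 15.8, Klrd1 at 17.8 and 21.04, Cd8b at 24.8 and 25.96 and Cd8a at 20.7 and 29.4. Cd3g, of the same list, had a lower mean in the old animals (50.1 and 44.8). Whether cytotoxic lymphocytes rose was not tested. No gene of these lists was at 0 on all arrays. The part of such cells in the rises of the 7 genes was not tested.

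Genes of the other cells of CA1 were read in the same way. Of 10 astrocyte genes 3 rose, Gfap by 1.32-fold, S100b by 1.17-fold and Slc1a3 by 1.14-fold (median of the list 0.074). Of 9 neuronal genes 1 fell, Stmn2, by 1.23-fold, of 6 CA1 pyramidal genes 1 fell, Pou3f1, by 1.25-fold, and of 8 oligodendrocyte genes 1 fell, Ugt8, by 1.21-fold (medians −0.014, −0.14 and −0.064). Of 6 endothelial genes 0 passed, with Vwf at 1.29-fold (adjusted p = 0.075, limma; median 0.15). The choroid plexus list (8 tested, median −0.11), the red blood cell list (2 tested, median 0.15) and the dentate list (2 tested, median 0.17) had 0 genes that passed. Between single arrays Prox1, of the dentate list, ranged from 274.1 to 1073.2 at 3 months and from 283.1 to 1066.5 at 23 months. Its bearing on the results within ages and on single animals was not tested. Without the 5 transthyretin-rich arrays, P2ry12, Csf1r, Aif1 and Laptm5 had log2 differences of 0.47, 0.36, 0.57 and 0.70 between 23 and 3 months and stayed called (largest adjusted p = 0.0040, limma). Without the 2 arrays of high Hbb signal these were 0.54, 0.38, 0.58 and 0.58, also called (largest adjusted p = 2.10e-04, limma), and Laptm5 passed at 12 against 3 months (adjusted p = 0.042, limma).

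**Figure D4:**
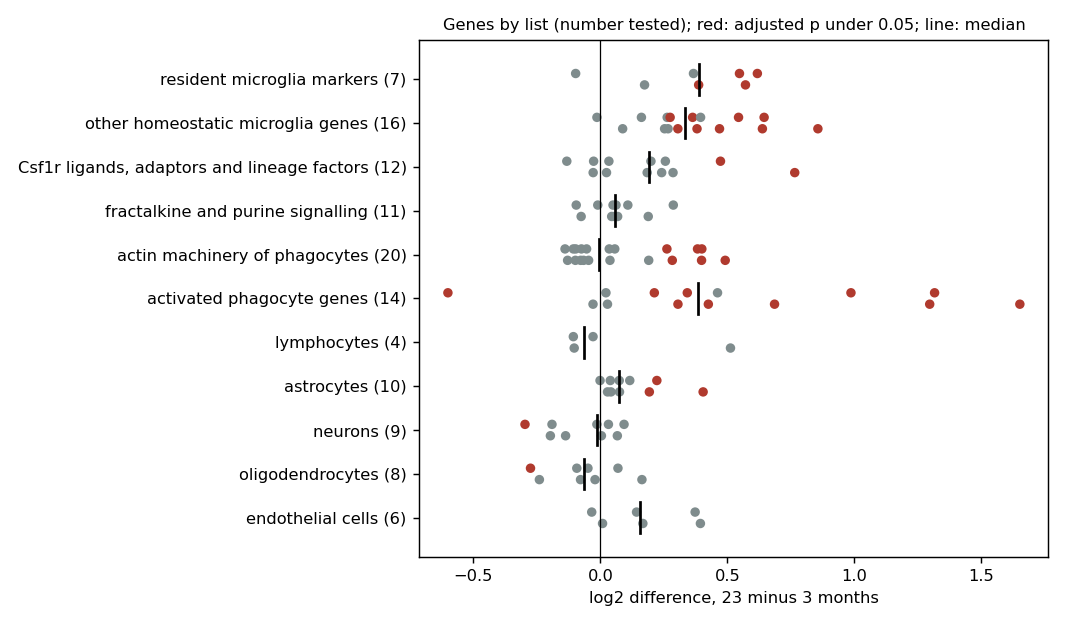
Log2 difference between 23 and 3 months (horizontal axis) of each tested gene, by list, with red for an adjusted p under 0.05 and a line at the list's median. The 7 resident markers have a median of 0.39, the 16 other homeostatic microglia genes 0.33 and the 9 neuronal genes −0.014.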

How the data were processed

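Each deposited value is a microarray intensity, linear, from 1 array per animal. The authors computed them with MAS5, per the submitters' processing notes, and scaled all probe sets of an array to a target of 500, per the series' design text; no version is given in the sources used here. Presence calls, scan dates and behaviour scores are not used here, and no batch could be tested.

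Entrez IDs linked the annotation to current symbols in RefSeq's gene table (GRCr8). Each gene was read from its brightest probe set, by mean log2 signal. Signals under 16 were set to 16 before log2 was taken, with no further scaling. A gene was tested where its signal reached 100 on at least 5 arrays. All 49 arrays entered a single fit in R 4.3.3 with limma 3.58.1 (lmFit, eBayes with a variance trend), with a mean per age, or with age as a number for the slope. Benjamini-Hochberg adjustment was over 8094 genes. No per-sample column was left unused (0). The limma and permutation steps were tested on simulated data. Correlations within ages were tested with 100000 permutations.

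Members and gene lists were chosen with earlier results of these data known. The genes named were set by rule: every member, the 3 listed genes of smallest p, and the 8 most alike profiles; others (Tmem119, Csf1, Cx3cl1, the further genes that rose in the actin list, Coro1b, Coro1c, Coro7, Lpl and single marker genes) were named after their values were seen. Alternatives covered the floor, filter, scaling, probe sets, variance model, a block for the replicate number, fits of 2 ages and each array left out. The comparison of probe sets within ages, the fits without the 2 arrays of high haemoglobin signal and the oldest age of 25 months were added after seeing the data.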

Additional observations from a re-analysis of the deposited data

How the results depend on the processing

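The 4 calls at 23 against 3 months, in the F-test and in the slope held under every alternative run. Of 3464 alternative values of single genes, 3446 kept their call; 8 lost one, all Aif1 at 23 against 12 months, and 10 gained one, Laptm5 at 12 against 3 months in 9 and P2ry12 at 23 against 12 months in 1. In 58, none called, the sign changed. At 12 against 3 months the count of the 7 genes called was 0, but 1 with array weights and 1 without the 2 arrays of high haemoglobin signal, and 0 to 1 with 1 array left out. At 23 against 12 months it was 1, but 0 without the 5 transthyretin-rich arrays and 0 in the fit of 2 ages alone, and 0 to 1 with 1 array left out. The cause of these changes was not tested. Pairs that differed in change numbered 8 and, with 1 array left out, 5 to 10; correlated pairs numbered 1, 0 without the transthyretin-rich arrays, and 0 to 2 with 1 array left out. Over all genes, 173 instead of 264 were called at 23 against 3 months without those arrays, 14 instead of 29 at 23 against 12 months with 2 ages alone, and 37 (array weights) or 28 (replicate block) instead of 18 at 12 against 3 months. At 9 and 6 against 3 months, 3 and 1 genes became 1 to 8 and 0 to 2, and at the departure from a line 0 became at most 2 (1 with 25 months as the oldest age). Deviations of same-numbered animals correlated by 0.065 on average (−0.13 to 0.36, 86 pairs), against −0.0063 over 868 pairs with other numbers. It was over 0.1 in 33 of the 86 pairs, and 11 of 49 arrays correlated best with their own number. Replicates 10, 11, 13, 14 and 15 of 23 months could not do so, since no other age holds their numbers. The shares to be expected without pairing were not worked out, so these counts do not show that the number has no effect. The labels give the number no shared origin, so it was not taken to pair the animals. With the replicate block the counts of the 7 genes called were as without it in every comparison, 4 at 23 against 3 months, but at 23 against 12 months the gene was P2ry12 (adjusted p = 0.0053, limma) and not Aif1 (adjusted p = 0.148, limma). The signal of Irf8, near the level of the filter, limits what can be said of it: with the filter at 200 it was not tested.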
